A study of Mus musculus with 33 samples.

Results

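The genes examined were Camk2a, Camk2b, Camk2d and Camk2g, which encode the α, β, δ and γ chains of Ca2+/calmodulin-dependent protein kinase II (CaM kinase II). They were taken by symbol: 4 of the 22970 gene rows measured by 3′-end RNA sequencing, and 17 of the 3885 splice events measured by RASL-seq. In RASL-seq, DNA probes anneal on either side of an exon junction, a ligase joins those that abut, and the joined products are sequenced. Each event has a count for a short and for a long isoform. Camk2d had 5 events, Camk2g 5, Camk2b 6 and Camk2a 1.

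The samples were cardiac myocytes isolated from the hearts of mice labelled RBFox2 KO (knockout) and of wild-type (WT) mice, all on a Black Swiss strain background. RASL-seq was available for KO and WT at 5, 9 and 18 weeks of age, and 3′-end sequencing for KO and WT at 9 weeks. Each genotype and age had 3 numbered libraries. How the knockout was made, in which cells the gene was removed, and whether the libraries came from separate animals is not given in the sources used here, so p-values measure the spread between libraries only.

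CaM kinase II is a serine/threonine kinase whose chains assemble into a ring through their C-terminal hub domains. Calcium-loaded calmodulin releases the kinase domain from its autoinhibitory segment, and autophosphorylation then keeps it active after calcium has fallen. In heart muscle the δ chain is the main one, and known substrates are the ryanodine receptor, phospholamban, the L-type calcium channel and class IIa histone deacetylases. Between the regulatory segment and the hub lies a variable linker built from alternative exons, and Camk2d isoforms that differ there differ in their place in the cell, one of them carrying a nuclear localisation signal. Rbfox2 is an RNA-binding protein that regulates alternative exons. The tables do not say which exon an event number stands for, so events are named by number and none is equated with a named δ isoform.

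Rbfox2, the targeted gene, was lower in every KO library than in any WT library of the same age. At 3′ ends it had 117.3, 81.7 and 66.4 reads per 10000000 (RP10M) in the KO libraries, against 322.8, 296.7 and 214.4 RP10M in the WT libraries (log2 change -1.66, SE 0.30, limma adjusted p = 0.0233, tested on log2(RP10M + 1)). Summed over its RASL-seq counts it stood at 86.7 ± 46.9, 70.5 ± 42.1 and 41.04 ± 22.3 counts per 1000000 (CPM) in KO at weeks 5, 9 and 18, against 336 ± 85.3, 376 ± 59.3 and 427 ± 29.5 CPM in WT (mean ± SD, n = 3 each). RASL-seq libraries held 1998027 to 12876511 counts and 3′-end libraries 4007538 to 9563471 recovered reads. Rbfox2 counts remained in each KO library, between 26.5 and 140 CPM.

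Of the 17 events, 8 had enough counts to be tested for a change in isoform ratio, namely all 5 of Camk2d and 3 of Camk2g. The 8 tested events are not independent, because several share a probe product. In all 18 libraries the short count of Camk2d event 3972 is the short count of event 9000. The long count of 3972 is also the short count of 4554 and the long count of 8961, and the long count of 9000 is the short count of 8961. Events 3972, 9000, 4554 and 8961 are therefore pairwise ratios of only 4 distinct counts, which are called ligation products here. Camk2g events 4106 and 4824 share a count in the same way, the long one of 4106 being the short one of 4824. Event 8961 carries the type TwoMulx in the table and the other 16 the type Cassette.

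At each age the KO myocytes had far less of the long isoform of Camk2d events 3972 and 9000 and less of the long isoform of Camk2g event 4824. These were 3 of the 8 events tested at weeks 5, 9 and 18 alike, each with the long isoform lower in KO. An event passed where edgeR's quasi-likelihood test of the isoform ratio gave a Benjamini-Hochberg adjusted p under 0.05. Over all 2032 events tested, 10.1%, 16.9% and 19.4% changed at weeks 5, 9 and 18, and 6.1%, 8.91% and 8.61% had the long isoform lower in KO. The median log2 change of the long to short ratio over the 8 events was -0.59, -0.87 and -0.92 at weeks 5, 9 and 18, against 0.05, 0.04 and 0.17 over all events tested.

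Event 3972 showed the widest gap in Camk2d. At week 5 the long isoform made up 7.79%, 7.77% and 11.1% of its counts in the KO libraries, against 51.7%, 59.7% and 61.2% in the WT libraries. Shares at week 9 were 11.4%, 4.22% and 4.60% in KO, against 58.2%, 65.3% and 63.1% in WT. Those at week 18 were 7.54%, 3.21% and 5.07% in KO, against 67.2%, 65.4% and 65.8% in WT. The genotypes did not overlap at any age, and the highest KO share over all ages lay far under the lowest WT share. The log2 change of the long to short ratio, KO over WT, was -3.82 (SE 0.35), -4.67 (SE 0.35) and -5.21 (SE 0.36) at weeks 5, 9 and 18 (edgeR adjusted p = 5.30e-08, 2.58e-09 and 3.85e-10). These shares rest on at least 6782 counts per library, and the widest 95% Wilson interval of a library spans 2.18 percentage points, which is counting error only.

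Event 9000 sets the same short product against another long one. At week 5 its long isoform made up 2.63%, 2.70% and 10.3% in the KO libraries, against 27.6%, 43.9% and 44.4% in the WT libraries. In the week 9 libraries it made up 6.72%, 2.14% and 1.92% in KO, against 32.3%, 36.9% and 37.4% in WT, and at week 18 it made up 1.93%, 3.71% and 4.28% in KO, against 55.2%, 52.6% and 52.9% in WT. No KO library reached a WT library of its age, and each WT share at week 18 lay above each WT share at the other ages. The WT change from week 5 to week 18 did not pass (edgeR adjusted p = 0.359). KO over WT, the log2 change was -3.82 (SE 0.55), -4.13 (SE 0.54) and -5.15 (SE 0.55) (edgeR adjusted p = 6.66e-05, 1.80e-05 and 9.67e-07). Since 3972 and 9000 share their short count, these calls are not independent of each other.

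In Camk2g, the long isoform of event 4824 remained the larger one in all KO libraries but 1, yet its share was lower than in WT. At week 5 it made up 61.7%, 64.7% and 74.3% in the KO libraries, against 91.1%, 87.5% and 88.3% in the WT libraries. The shares at week 9 were 70.7%, 62.6% and 50.0% in KO, against 84.8%, 86.2% and 90.4% in WT, and those at week 18 were 71.9%, 61.3% and 64.2% in KO, against 88.1%, 86.6% and 81.8% in WT. The genotypes did not overlap at any age. The log2 change was -1.97 (SE 0.34), -2.05 (SE 0.34) and -1.59 (SE 0.35) (edgeR adjusted p = 0.000300, 0.000128 and 0.00201). Counts were lower here, down to 67 in KO library 3 at week 18, where the 95% Wilson interval runs from 52.2% to 74.6%.

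**Figure D1:**
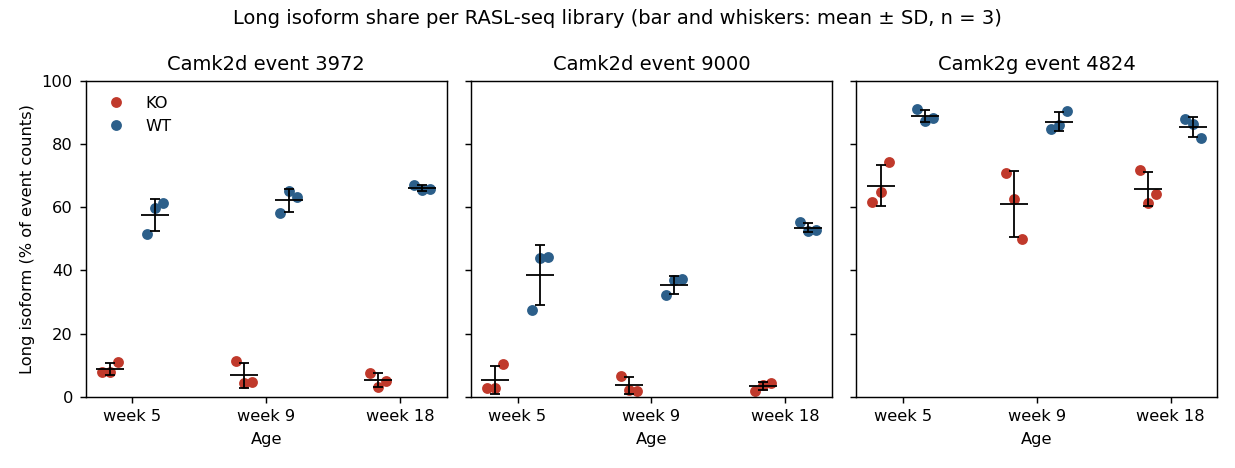
Share of long-isoform counts (%, vertical axis) in each RASL-seq library at weeks 5, 9 and 18 for Camk2d events 3972 and 9000 and Camk2g event 4824, KO in red and WT in blue, with the mean and SD of 3 libraries in black. KO libraries lie between 3.21% and 11.4% for event 3972 and between 1.92% and 10.3% for event 9000, and in all 3 panels KO and WT do not overlap at any age.

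The KO libraries differed among themselves in how much Rbfox2 RNA they held. The KO library with the most Rbfox2 counts was library 3 at week 5 (140 CPM, against 54.3 and 65.4 CPM in the other KO libraries). At week 9 it was library 1 (119 CPM, against 45.8 and 46.8 CPM), and at week 18 it was library 1 (66.7 CPM, against 29.9 and 26.5 CPM). That library also had the highest long share of its KO group for events 3972 and 4824 at 3 of 3 ages, and for event 9000 at 2 of 3. Among WT libraries, the one with the most Rbfox2 counts had the highest long share at 1 of 3 ages for events 3972 and 4824, and at 0 of 3 for event 9000. The part of remaining Rbfox2 RNA in these shares was not tested. Without that library, the log2 change of event 3972 was -4.01, -5.16 and -5.54 at weeks 5, 9 and 18. That of event 4824 was -2.24, -2.37 and -1.84. These events had their highest KO share in that library, so the wider gap without it follows from the choice of library.

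The other 5 tested events did not pass in KO against WT at any age, with edgeR adjusted p between 0.727 and 0.993 at week 5, 0.207 and 0.684 at week 9, and 0.380 and 0.931 at week 18. Long shares of KO and WT did not overlap for 3, 5 and 4 of the 8 events at weeks 5, 9 and 18, against 25.4%, 30.8% and 36.6% of all events tested. The events that added to the called ones were 4554 at weeks 9 and 18 and 8961 at week 9.

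Event 8961 sets against each other a pair of Camk2d products that were both lower in KO at weeks 9 and 18. Its long isoform made up 67.6 ± 13.6%, 67.4 ± 3.54% and 60.4 ± 17.9% in KO at weeks 5, 9 and 18, against 68.5 ± 4.54%, 75.0 ± 1.14% and 62.8 ± 0.36% in WT (mean ± SD, n = 3 each). The log2 changes of the ratio were -0.02 (SE 0.42), -0.54 (SE 0.42) and -0.07 (SE 0.43). The KO spread at weeks 5 and 18 exceeded the difference between the genotypes.

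The KO libraries of event 4554 differed widely at weeks 5 and 18. Its long isoform made up 2.27%, 2.21% and 26.6% in the KO libraries at week 5, against 5.12%, 14.2% and 15.3% in the WT libraries. Its share at week 9 was 10.9%, 12.5% and 12.2% in KO, against 20.3%, 16.2% and 21.8% in WT, and at week 18 it was 1.70%, 27.1% and 30.1% in KO, against 31.4%, 31.1% and 30.6% in WT. A single KO library stood apart at each of weeks 5 and 18, high at week 5 and low at week 18, while the WT libraries at week 18 lay within 1 point of each other. The log2 changes were -0.91 (SE 1.18), -0.83 (SE 1.06) and -1.37 (SE 1.14), with SEs wider than the changes at week 9 and week 5. A fit of the week 9 libraries alone called this event (edgeR adjusted p = 0.0288), and the fit over all libraries did not (adjusted p = 0.684).

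Event 4762 of Camk2d shares no product with the others and was nearly all long. The long isoform made up 98.8% to 99.6% in the KO libraries over all ages and 99.0% to 99.6% in the WT libraries. The log2 changes of its ratio were -0.22 (SE 0.28), -0.57 (SE 0.28) and -0.44 (SE 0.32) at weeks 5, 9 and 18, none of which passed.

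The Camk2g events 4106 and 8917 did not pass at any age either. The long isoform of 4106 made up 24.5 ± 5.08%, 28.5 ± 4.06% and 25.7 ± 1.88% in KO at weeks 5, 9 and 18, against 21.4 ± 4.61%, 25.01 ± 5.57% and 27.1 ± 1.94% in WT. Event 8917 was nearly all long, with 95.9 ± 0.33%, 95.9 ± 2.27% and 97.8 ± 1.77% in KO, against 96.2 ± 1.47%, 97.9 ± 0.41% and 98.6 ± 0.50% in WT. Its log2 change at week 9 was -0.90 (SE 0.49, edgeR adjusted p = 0.246), and without KO library 1 it passed (adjusted p = 0.0316).

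**Figure D2:**
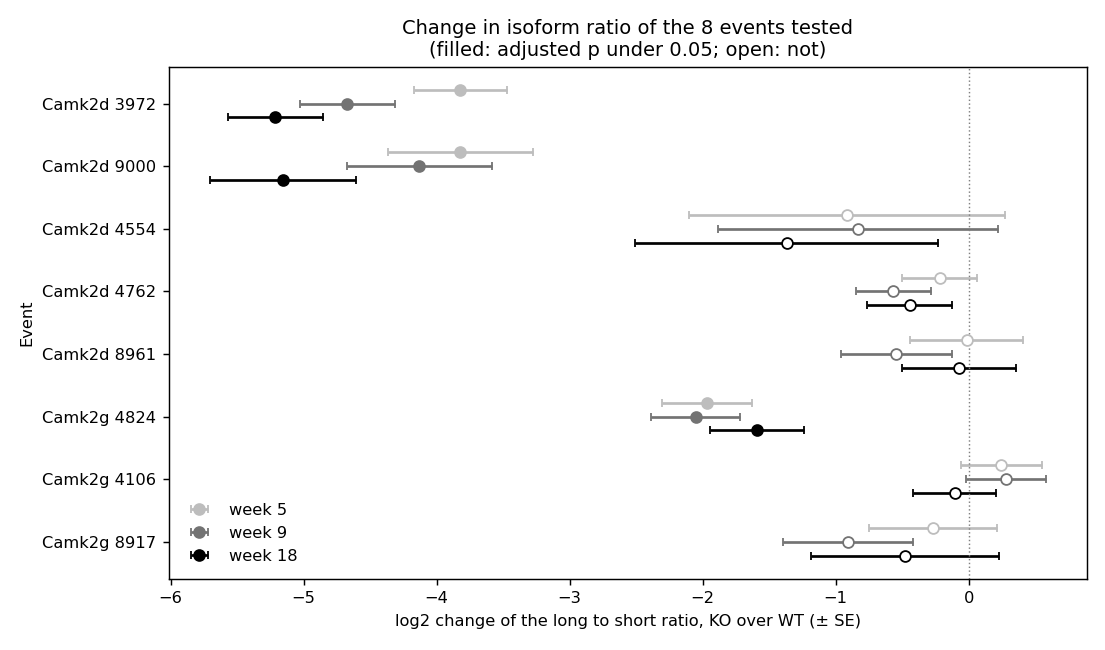
Change in the ratio of long to short counts, KO over WT, on the log2 scale (horizontal axis, ± SE) for the 8 tested events of Camk2d and Camk2g at weeks 5 (light grey), 9 (dark grey) and 18 (black), with filled points for adjusted p under 0.05. Events 3972, 9000 and 4824 are filled at all 3 ages, between -5.21 and -1.59, and the other 5 events are open, between -1.37 and 0.28.

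The 9 events that were not tested had too few counts of an isoform or none. Camk2g event 9114 gave only long counts (8377 in all), and event 7007 gave 6 long counts among 10051. Camk2b, the chain best known from brain and also found in muscle, gave counts of a single isoform in events 6996 (1902 counts, all short), 7975 (5817, all long) and 8005 (9149, all short). Its event 7213 had 294 short and 5 long counts, event 4374 had 12 long counts, and event 8839 had none. The single Camk2a event, 4756, had no count in any library, which allows up to 0.233 CPM in the deepest and 1.50 CPM in the shallowest library (3 counts of the total). These limits cover counting error only.

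Because ratios of shared counts hide which count moved, the level of each ligation product was also compared. This comparison was added after the data had been seen. It used edgeR's quasi-likelihood test on the counts, adjusted over 4018 products, of which 17 belong to the Camk2 genes. A product is named by an event it belongs to. Of the 17, 2 were higher and 4 lower in KO at week 5, 1 higher and 6 lower at week 9, and 1 higher and 7 lower at week 18. Over all products 10.2%, 15.4% and 21.7% changed at weeks 5, 9 and 18. Of all products, 5.97%, 8.54% and 12% were higher and 4.21%, 6.87% and 9.76% lower in KO. In such bulk samples, fewer cells of a type and less RNA per cell cannot be told apart.

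For Camk2d, the short product of 3972 (shared with 9000) was higher in KO at each age. Its long product was lower in KO at each age, and the other linked products were lower at weeks 9 and 18. The short product of 3972 stood at 5050, 5353 and 3523 CPM in the KO libraries at week 5, against 1434, 967 and 996 CPM in the WT libraries. Levels at week 9 were 4630, 5298 and 3446 CPM in KO, against 1408, 1198 and 1129 CPM in WT, and those at week 18 were 5326, 5080 and 3222 CPM in KO, against 948, 881 and 937 CPM in WT. The lowest KO library at any age was more than the highest WT library. The level in KO was 4.31-fold, 3.66-fold and 5.02-fold that in WT at weeks 5, 9 and 18 (edgeR adjusted p = 8.93e-07, 2.64e-06 and 1.01e-07).

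In turn, the long product of 3972 averaged 439 ± 12.2, 332 ± 231 and 258 ± 153 CPM in KO at weeks 5, 9 and 18, against 1513 ± 72.1, 2049 ± 177 and 1802 ± 140 CPM in WT (mean ± SD, n = 3 each). It was 3.26-fold, 6.14-fold and 6.94-fold lower in KO (edgeR adjusted p = 0.00587, 0.000111 and 5.10e-05). The short product of 8961, which is the long one of 9000, was 2.85-fold, 3.94-fold and 6.99-fold lower and passed at weeks 9 and 18 (adjusted p = 0.0706, 0.0139 and 0.00118). At week 9 it did not pass without KO library 2 (adjusted p = 0.0768), and at week 5 it passed without KO library 3 (adjusted p = 0.0109).

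The long product of 4554 stood at 9.91, 10.2 and 159 CPM in the KO libraries at week 5, against 82.8, 237 and 285 CPM in the WT libraries. In week 9 libraries it stood at 72.7, 33.5 and 23.2 CPM in KO, against 499, 434 and 538 CPM in WT, and at week 18 it stood at 7.52, 62.7 and 74.1 CPM in KO, against 887, 749 and 795 CPM in WT. The genotypes overlapped at week 5 and did not at weeks 9 and 18. It was 11.2-fold lower at week 9 (edgeR adjusted p = 0.0376) and 16.6-fold lower at week 18 (adjusted p = 0.0161). The week 9 call was lost when any WT library, KO library 2 or KO library 3 was left out (adjusted p 0.0574 to 0.143). At week 5 the product did not pass (adjusted p = 0.386), but did without KO library 3 (adjusted p = 0.0112).

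The long product of 4762, outside the linked set, did not differ past the threshold between genotypes. It averaged 763 ± 40.6, 901 ± 75.2 and 1032 ± 48.3 CPM in KO at weeks 5, 9 and 18, against 676 ± 10.3, 937 ± 69.5 and 1131 ± 71.5 CPM in WT. Its log2 changes were 0.26 (SE 0.13), -0.02 (SE 0.13) and -0.10 (SE 0.13), with edgeR adjusted p of 0.248, 0.935 and 0.623.

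As a share of the 4 linked Camk2d products together, the short product of 3972 made up 85.8 ± 6.90%, 89.5 ± 6.32% and 90.7 ± 1.53% in KO at weeks 5, 9 and 18, against 31.9 ± 6.92%, 27.9 ± 2.75% and 20.1 ± 0.80% in WT. That of 4554 (long) made up 1.28 ± 1.92%, 0.84 ± 0.39% and 1.11 ± 0.96% in KO, against 5.69 ± 2.97%, 11.01 ± 1.56% and 17.6 ± 0.31% in WT. In WT, the long product of 4554 had a larger share at week 18 than at week 5. The short product of 3972 had a smaller one. The WT libraries of these ages did not overlap, but these shares were not tested. The levels of these products did not pass in WT between these ages (edgeR adjusted p = 0.150 and 0.668). Nor did the ratios of events 4554 and 3972 (edgeR adjusted p = 0.346 and 0.409). Summed, the 4 products gave 5371 ± 751, 5005 ± 1128 and 4997 ± 1213 CPM in KO, against 3546 ± 134, 4466 ± 167 and 4600 ± 339 CPM in WT. Probe pairs can ligate with unequal efficiency, so such shares compare libraries and are not shares of RNA molecules.

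Among the linked Camk2g products, the long product of 4824 was lower in KO at each age, and the products of 4106 did not pass. At week 5 that product stood at 32.5, 39.5 and 53.7 CPM in the KO libraries, against 169, 176 and 184 CPM in the WT libraries. Week 9 levels were 79.2, 31.5 and 17.9 CPM in KO, against 181, 212 and 183 CPM in WT, and week 18 levels were 62.03, 29.01 and 21.5 CPM in KO, against 219, 172 and 177 CPM in WT. Every KO library lay under every WT library. It was 3.94-fold, 4.40-fold and 4.92-fold lower in KO (edgeR adjusted p = 0.00225, 0.000693 and 0.000345). The product it shares an event with, the long one of 4106, was not called at any age (log2 change -0.03, -0.25 and -0.76, adjusted p = 0.966, 0.611 and 0.0513). Nor was the short one of 4106 (-0.27, -0.53 and -0.65, adjusted p = 0.573, 0.131 and 0.0523). Without KO library 1 both passed at week 18 (adjusted p = 0.0272 for the long and 0.00668 for the short product).

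A further 3 Camk2g products were lower in KO, from events that could not be tested as ratios or did not pass. The long product of 8917 was 1.89-fold, 1.76-fold and 2.51-fold lower in KO at weeks 5, 9 and 18 (edgeR adjusted p = 0.0105, 0.0158 and 0.000187). That of 9114 was 1.98-fold lower at week 9 and 2.62-fold lower at week 18 (adjusted p = 0.00409 and 0.000139) and did not pass at week 5 (adjusted p = 0.0849). Likewise, the short product of 7007 was 1.79-fold lower at week 5 and 1.78-fold lower at week 18 (adjusted p = 0.0155 and 0.00905). The calls of 7007 at weeks 5 and 18 and of 8917 at week 9 depended on single libraries. That of 7007 was lost at week 5 when WT library 1 or KO library 1 was left out (adjusted p up to 0.0792), and at week 18 when WT library 1, KO library 2 or KO library 3 was (0.0553 to 0.0559). At week 9, where it had an adjusted p of 0.0726, it passed without WT library 3 (0.0437). That of 8917 at week 9 was lost when any of WT library 1, KO library 2 and KO library 3 was left out (0.0544 to 0.0913). Together the 3 linked Camk2g products summed to 125 ± 21.7, 124 ± 55.04 and 109 ± 48.3 CPM in KO, against 279 ± 7.02, 305 ± 36.5 and 306 ± 28.1 CPM in WT.

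**Figure D3:**
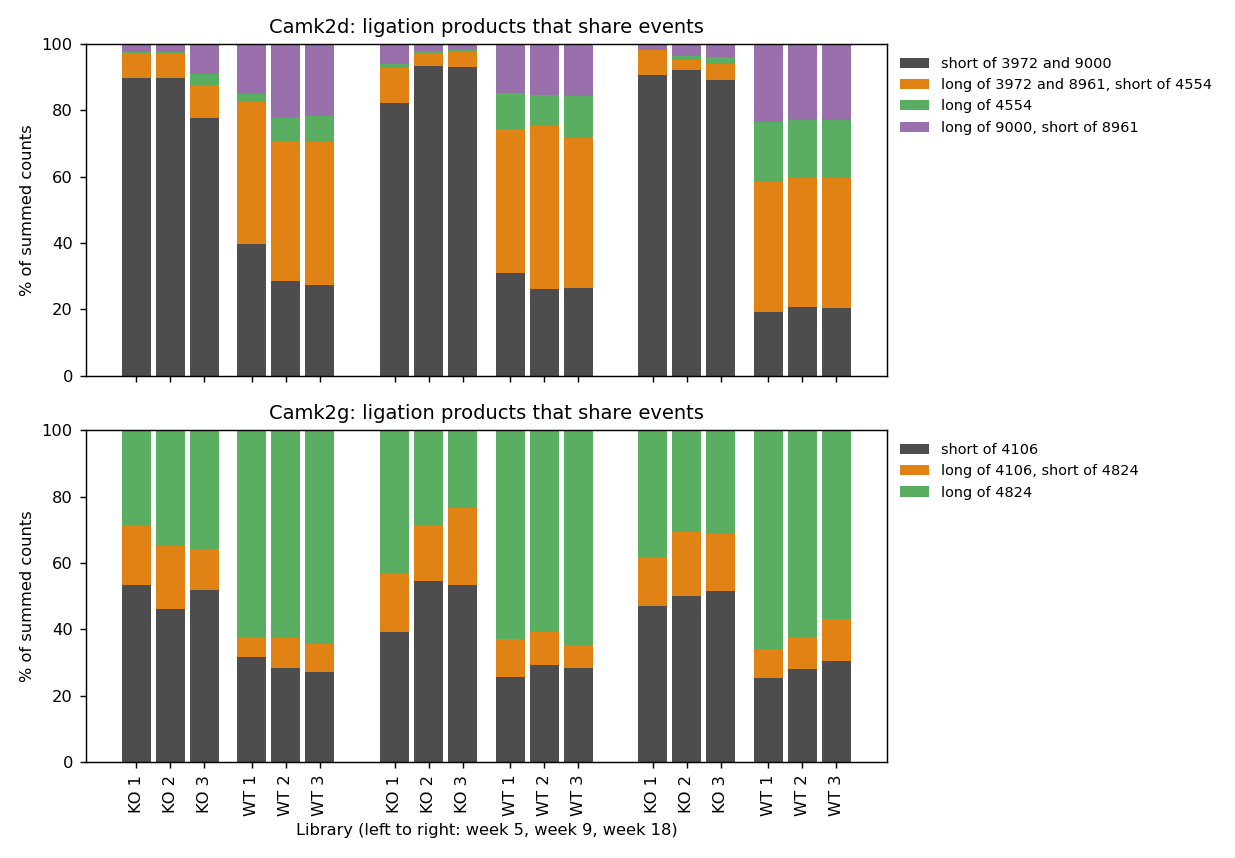
Make-up of the linked ligation products (% of their summed counts, vertical axis) of Camk2d (top) and Camk2g (bottom) in each library, ordered by age and with KO before WT at each age. The short product of Camk2d event 3972 (dark grey) averages 85.8%, 89.5% and 90.7% in KO, against 31.9%, 27.9% and 20.1% in WT, and the long product of Camk2g event 4824 (green) averages 33.1%, 31.7% and 33.3% in KO, against 63.2%, 62.9% and 61.7% in WT.

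Of the 4 Camk2b products tested, the short product of 8005 was higher in KO at week 5. It stood at 122, 132 and 121 CPM in the KO libraries, against 37.8, 73.2 and 68.2 CPM in the WT libraries (log2 change 1.17, SE 0.24, edgeR adjusted p = 0.00225). At weeks 9 and 18 it averaged 111 ± 25.2 and 152 ± 54.5 CPM in KO, against 70.2 ± 7.72 and 102 ± 11.5 CPM in WT, and did not pass (adjusted p = 0.0543 and 0.0806). At week 18 KO library 3 (88.6 CPM) lay under every WT library. Without KO library 3, the product passed at weeks 9 and 18 (adjusted p = 0.0411 and 0.00732).

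**Figure D4:**
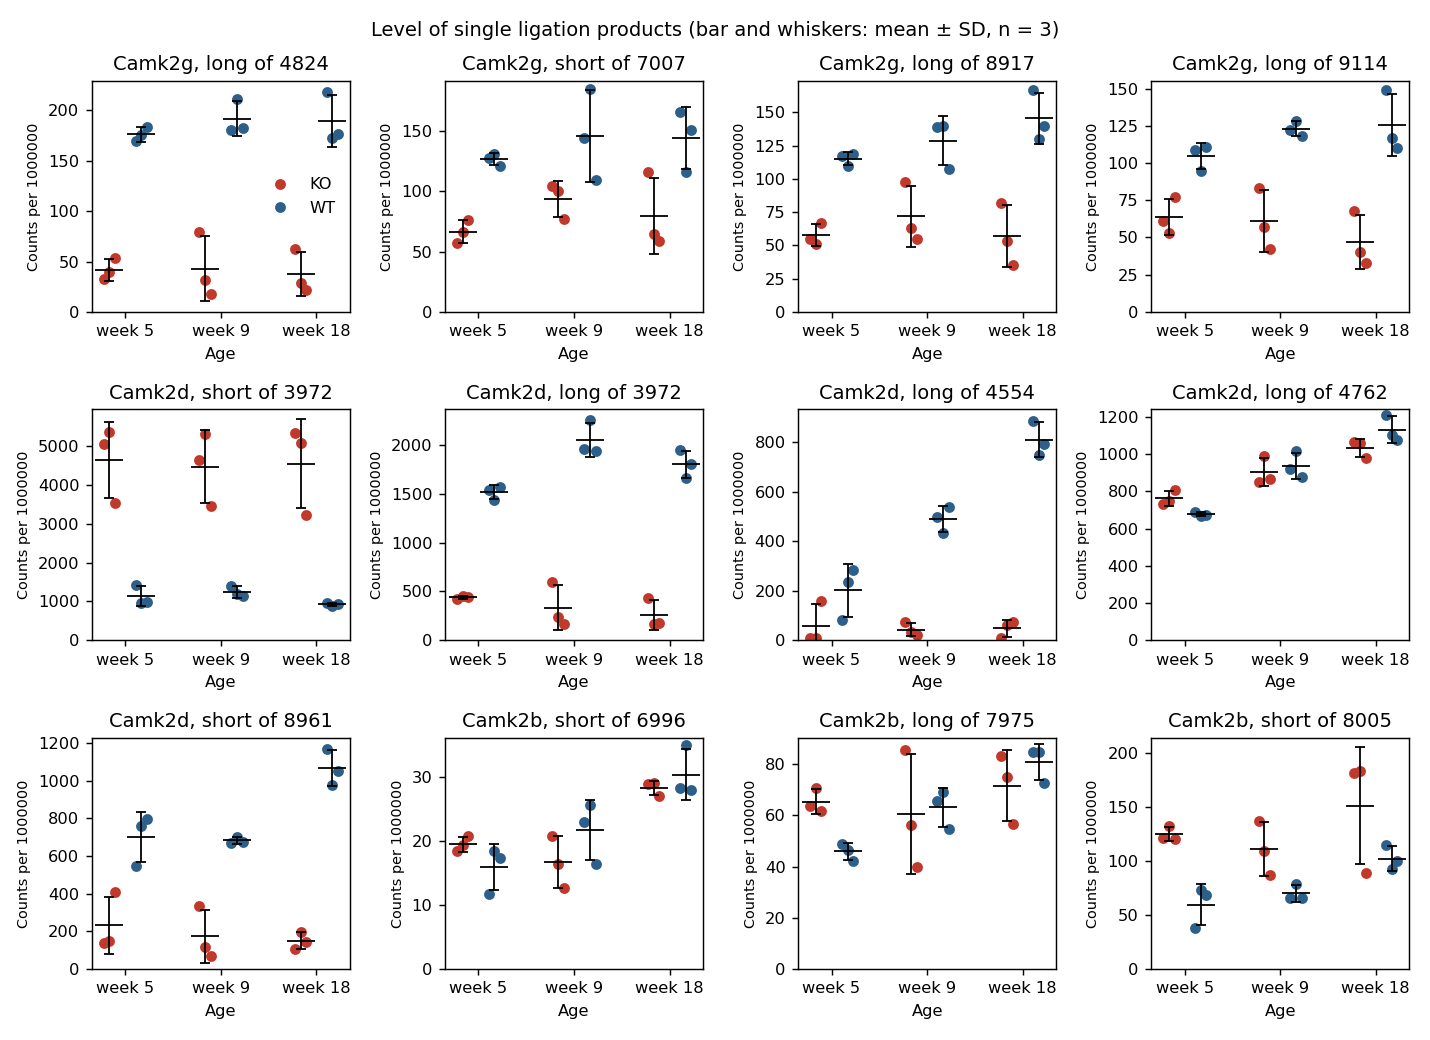
Level in counts per 1000000 (vertical axis, from 0) of the 12 ligation products of Camk2g, Camk2d and Camk2b that passed in any comparison, in each library at weeks 5, 9 and 18, KO in red and WT in blue, with the mean and SD of 3 libraries in black. The short product of 3972 is higher in KO, its long product and the long product of 4824 are lower in KO, and the long product of 4762 averages 763, 901 and 1032 in KO at weeks 5, 9 and 18, against 676, 937 and 1131 in WT.

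Age was compared within each genotype, week 18 against week 5. In WT, 1 of the 8 events passed, with the long isoform higher at week 18, against 5.66% of all events tested and 3.49% with the long isoform higher. This was Camk2d event 4762, whose long to short ratio was higher at week 18 by a log2 change of 1.13 (SE 0.30, edgeR adjusted p = 0.0316), with long shares of 99.6 ± 0.03% at week 18 and 99.2 ± 0.13% at week 5. The call was lost with DESeq2 (adjusted p = 0.0576) and without any of the WT libraries except library 1 of week 5 (0.0835 to 0.173). Event 8917 passed in WT without library 1 of week 5 (adjusted p = 0.0347, against 0.103 with it), and event 4554 in a fit of the WT libraries of these ages alone (0.0173, against 0.346). In KO, 0 of the 8 events passed, against 3.54% of all events tested, with edgeR adjusted p between 0.102 and 0.942. By edgeR, 2 of the 8 had an unadjusted p under 0.05, and DESeq2 and limma also called 0.

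The difference between the genotype effects at week 18 and week 5 was tested directly, and 0 of the 8 events passed, against 0.787% of all events tested. For event 3972 the gap between KO and WT was wider at week 18 by a log2 change of -1.39 (SE 0.48), with an edgeR p of 0.00826 and an adjusted p of 0.208. It was the single event of the 8 with an unadjusted p under 0.05, and DESeq2 and limma called 0 events as well. Event 9000 gave -1.33 (SE 0.74, adjusted p = 0.476) and event 4824 gave 0.37 (SE 0.49, adjusted p = 0.829).

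At the level of products, 1 of 17 was higher at week 18 than at week 5 in KO and 4 of 17 in WT, while 11.5% of all products in KO and 15.7% in WT changed, and 4.85% in KO and 6.17% in WT were higher at week 18. The long product of Camk2d event 4762 rose in KO (log2 change 0.53, SE 0.13, edgeR adjusted p = 0.00960) and in WT (0.89, SE 0.13, adjusted p = 0.000153). In KO this was lost without library 2 of week 18 (adjusted p = 0.0530). The other 3 in WT were Camk2b products, the short one of 6996 (log2 change 1.10, adjusted p = 0.00237), the long one of 7975 (0.96, adjusted p = 0.00469) and the short one of 8005 (0.95, adjusted p = 0.0103). That of 8005 was lost without WT library 1 of week 18 (adjusted p = 0.0531). Whether the genotypes differ in these rises was not tested.

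At week 9 the 3′-end libraries give a signal per gene, from reads at RNA 3′ ends, in which isoforms are not told apart. Whether these reads cover every 3′ end of a gene was not tested, so the signal need not be its whole level. None of the 4 genes passed by limma (0 of 4, against 1.6% of 10858 genes tested), while Camk2a and Camk2g were lower in every KO library than in any WT library, as were 9.25% of all genes tested. The unadjusted p was under 0.05 for 2 of the 4, edgeR on the recovered reads called 0 and DESeq2 called 1 (Camk2a). Each gene rests on 25 to 323 reads per library. RP10M values were used to compare libraries within a gene, and the genes are not ranked against each other.

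Camk2d stood at 144.7, 197.8 and 136.4 RP10M in the KO libraries, against 100.4, 56.1 and 140.1 RP10M in the WT libraries. The genotypes overlapped, and the log2 change was 0.76 (SE 0.36, limma adjusted p = 0.316). Camk2g stood at 77.4, 113.9 and 79.3 RP10M in KO, against 199.4, 155.6 and 135.9 RP10M in WT. They did not overlap, and the log2 change was -0.86 (SE 0.29, adjusted p = 0.169).

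Camk2a, the chain best known from forebrain neurons, stood at 162.2, 94.6 and 83 RP10M in the KO libraries, against 438.1, 197.2 and 196.6 RP10M in the WT libraries. The highest KO library lay under the lowest WT library, and the log2 change was -1.24 (SE 0.37, limma adjusted p = 0.129, DESeq2 adjusted p = 0.0248). Camk2b stood at 104.8, 120.4 and 145.7 RP10M in KO, against 127.5, 45.2 and 84.7 RP10M in WT, with overlap (log2 change 0.63, SE 0.39, limma adjusted p = 0.455). No overlap was seen for 2 of the 4 genes, against 23.3% of all genes tested. Of 12 neuron and Schwann cell markers, Snap25 and Syt1 were among those at 0 in every library, and the list summed to 172 to 230 RP10M in KO, against 106 to 215 RP10M in WT. The 4 tested had positive fitted log2 changes (median 0.60, against 0.07 over all genes tested), and none was called. For Gfra3 the mean was lower in KO (18.5 RP10M) than in WT (39.4 RP10M), with a fitted log2 change of 0.26 (SE 1.63). Nefm, a neurofilament gene, did not overlap, with 27.4, 8.6 and 22.1 RP10M in KO, against 0, 3.6 and 0 RP10M in WT (limma adjusted p = 0.202). The part of nerve cells in the Camk2a values was not tested.

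**Figure D5:**
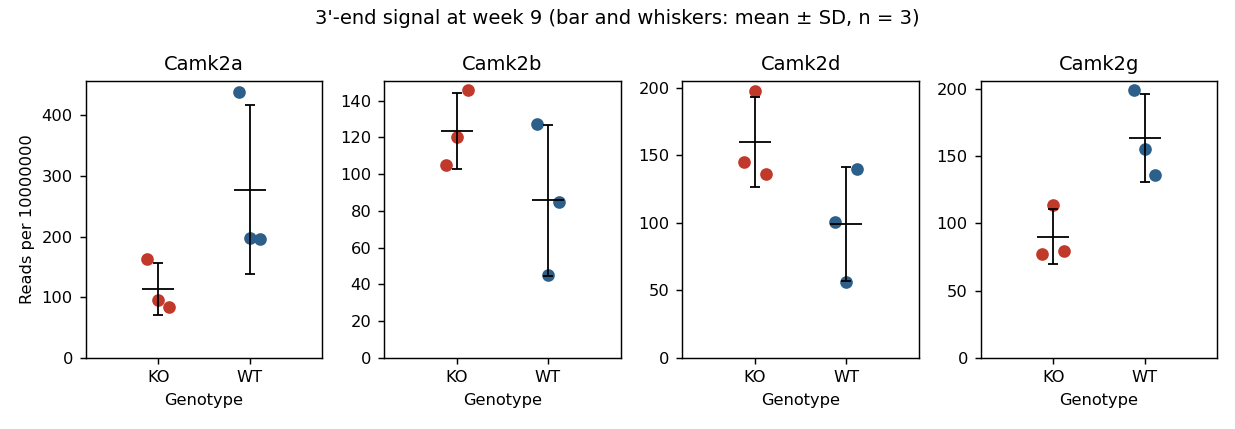
Signal at 3′ ends at week 9 in reads per 10000000 (vertical axis, from 0) for Camk2a, Camk2b, Camk2d and Camk2g, KO left of WT, with each library as a point and the mean and SD of 3 libraries in black. Camk2a and Camk2g do not overlap between KO and WT, Camk2b and Camk2d do, and none of the 4 passed the limma test.

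The libraries also differed at week 9 in genes used as markers of cell types. Over all genes tested, 1.21% were called higher in KO and 0.396% lower. All 10 ventricular myocyte markers were measured and 2 of them (Ryr2 and Myl2) were lower in KO. Of 5 atrial myocyte markers 4 (Myl7, Myl4, Nppa and Dkk3) were higher in KO. The list summed to 17951 to 33854 RP10M in KO, against 755 to 2350.5 RP10M in WT. Most of this was Nppa, with 29427, 14503 and 15610 RP10M in KO, against 1648, 1659 and 594 RP10M in WT. In which cells these genes were higher was not tested. Of 7 fibroblast markers tested 1 (Mfap5) was called higher, all 7 had positive fitted log2 changes (median 1.48), and the list summed to 3910 to 6144 RP10M in KO, against 705 to 4726 RP10M in WT. Of 8 endothelial markers and 5 macrophage and blood markers tested none was called, and of 6 smooth muscle and pericyte markers 1 was lower. The part of these in the Camk2 values was not tested.

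Other genes of the pathway were described from a list of 42 regulators and substrates. By 3′ ends, 36 were tested at week 9, of which 2 were higher in KO, 1 was lower and 33 did not pass. Over all genes tested 1.21% were higher and 0.396% lower. The list had a median log2 change of -0.16, against 0.07 over all genes tested. Calm3, 1 of the genes that encode calmodulin, stood at 1178, 1294 and 1339 RP10M in the KO libraries, against 427.2, 474.1 and 535.4 RP10M in the WT libraries (log2 change 1.41, SE 0.17, limma adjusted p = 0.00462). Calm2, which encodes the same protein, did not pass (log2 change -0.95, limma adjusted p = 0.350). Rcan1, an inhibitor of the phosphatase calcineurin, stood at 2959, 2693 and 2904 RP10M in KO, against 679.5, 450.5 and 1131 RP10M in WT (log2 change 2.02, SE 0.29, adjusted p = 0.0136).

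The kinase substrate Ryr2, through which calcium leaves the sarcoplasmic reticulum, was lower in KO. It stood at 2867, 2571 and 2039 RP10M in the KO libraries, against 8318, 4089 and 8287 RP10M in the WT libraries (log2 change -1.41, SE 0.27, limma adjusted p = 0.0429). Camk2n1, which encodes an inhibitor protein of CaM kinase II, varied widely, with 22.5, 172 and 140.1 RP10M in KO, against 115.3, 220.7 and 816.6 RP10M in WT (log2 change -1.73, adjusted p = 0.434). The count of 3 pathway genes past the threshold was 0 without KO library 2 or without KO library 3, 1 without KO library 1, and 6 without WT library 3.

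Among the splice events of the pathway list, 14 events of 10 genes were tested, and 1, 3 and 6 changed at weeks 5, 9 and 18, where 10.1%, 16.9% and 19.4% of all events tested passed. Event 4864 of Cacna1c, which encodes the pore of the L-type calcium channel, had long shares of 41.5 ± 8.29% and 38.1 ± 2.52% in KO at weeks 5 and 18, against 23.96 ± 6.45% and 25.3 ± 1.60% in WT (edgeR adjusted p = 0.00340 and 0.0194). At week 9 it stood at 34.8 ± 1.61% in KO, against 27.2 ± 1.30% in WT, and did not pass (edgeR adjusted p = 0.201). Others that passed were Camkk2 event 4741 and Ttn event 4680 at week 9, and Cacna1c 8805, Mef2a 9173, Mef2c 8612 and Ttn 3819 at week 18. Leaving out KO library 2 lowered the week 18 count to 2, and leaving out WT library 3 lowered it to 3.

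Of 12 genes reported as regulators of Camk2d splicing or of related muscle exons, Rbfox2 and Rbfox1 were lower in KO at 3′ ends and 10 did not pass. Rbfox1, a paralogue of Rbfox2 that binds the same RNA motif, stood at 379.3, 234.3 and 282.1 RP10M in the KO libraries, against 1222, 812.4 and 843.8 RP10M in the WT libraries (log2 change -1.68, SE 0.24, limma adjusted p = 0.0106). Of 15 splice events of these genes, 5 changed at each age, where 10.1%, 16.9% and 19.4% of all events tested passed at weeks 5, 9 and 18. The week 9 count holds event 8797 of Rbfox2 itself (edgeR adjusted p = 0.0495). That call rests on few counts, the short isoform having 3, 0 and 0 in the KO libraries, against 3, 4 and 7 in the WT libraries. Event 8797 did not pass at weeks 5 and 18 (edgeR adjusted p = 0.680 and 0.102). Event 6972 of Mbnl1, which encodes a muscleblind splicing factor, had long shares of 74.1 ± 3.89%, 80.8 ± 7.34% and 84.4 ± 6.32% in KO at weeks 5, 9 and 18, against 26.5 ± 12.3%, 14.9 ± 2.82% and 9.35 ± 0.59% in WT. Event 7108 of Hnrnpa1 had long shares of 7.50 ± 1.64%, 8.20 ± 0.50% and 7.65 ± 0.71% in KO, against 13.02 ± 1.15%, 13.8 ± 1.54% and 16.8 ± 0.64% in WT (edgeR adjusted p = 0.00344, 0.00425 and 4.18e-05). The part of these factors in the Camk2 events was not tested.

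The events of other genes whose log2 ratios ran most like those of the Camk2 events over the 18 libraries are given as a description. Libraries of 1 group share genotype and age, so the points are not independent. Since r spans both genotypes, a like gap between KO and WT in a pair of events raises it. For event 3972 they were R3hdm2 event 4973 (Pearson r = 0.988), Kif21a event 8747 (0.987) and Enah event 4742 (0.986). For event 9000 they were Kif21a 8747 (0.970), Smpx 7872 (0.963) and Mtap4 7683 (0.960), and for event 4824 St7 3925 (0.950), Lman2l 7161 (0.940) and Ppp1r12a 4110 (0.939). Kif21a event 8747 had long shares of 8.51%, 5.52% and 4.71% in KO at weeks 5, 9 and 18, against 85.9%, 92.5% and 92.6% in WT. For the events that did not pass in KO against WT the highest r was lower, 0.873 for event 4762 (Tbc1d9b event 7190), 0.810 for 8917 (Snx16 event 7944), 0.763 for 4554 (Prr13 event 7222), 0.761 for 4106 (Senp6 event 7891) and 0.725 for 8961 (Ank2 event 7043).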

How the data were processed

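The 3′-end table holds a signal per gene, which the authors deposited as reads per 10000000 (RP10M) per the file headers. The RASL-seq table holds raw counts of the short and long isoform per event, which the authors deposited per the file headers. Upstream tools, per the submitters' processing notes, were Bowtie 0.12.7 and cutadapt 1.2.1 with build mm9, and their roles are not given. No reference of that build was used, so no coordinates are given.

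The series holds 33 samples, of which the tables of 8 were analysed. For every genotype and age the labels give a single sample, whereas the table has 3 numbered columns. These were treated as separate libraries, since the chi-square per degree of freedom between RASL-seq columns of a group was 7.21 to 84.0, and between 3′-end columns 6.79 to 64.6.

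RP10M values were tested with limma 3.58.1 (R 4.3.3, trend and robust) on log2(RP10M + 1), a scale that understates changes of low genes, for the 10858 genes whose mean reached 10. Whole reads were recovered for edgeR 4.0.16 and DESeq2 1.42.0 as alternatives. Of the nonzero values, 99.8% to 100% came out whole within 0.1 reads. The RP10M values of WT library 2 sum to about 9529440, for which no reason is given.

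The 2032 RASL-seq events averaging 20 counts or more, and 1 or more for each isoform, were tested with edgeR's quasi-likelihood test. The model took both isoform counts, a term for each of the 18 libraries and the interaction of isoform and group. Products averaging 10 counts or more were tested for level with TMM scaling. The threshold was a p of 0.05 after Benjamini-Hochberg adjustment over all features tested. Each test was also run on simulated data. Counts carry no molecular identifiers and may hold PCR copies, so Wilson intervals cover counting error only.

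The members and gene lists were chosen with earlier results of these data known. Named are all Camk2 rows and events, Rbfox2, list members that passed, Calm2, Calm3 and Camk2n1, and the 3 most correlated events per tested event. Some nerve cell markers are named too. Mcu and Hba-a1 of the lists were not matched. Some list members are not reported here. Alternatives were other pseudocounts, filters, scalings, tests and fits, a block on column number, and leaving out each library.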

Additional observations from a re-analysis of the deposited data

Results flagged for a closer look

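The Mbnl1 event 6972, from the list of regulators, was marked because its genotype effect differed between ages in the test of the difference itself. The log2 change of its long to short ratio, KO over WT, was larger at week 18 than at week 5 by 2.64 (SE 0.62, edgeR adjusted p = 0.0431). No Camk2 event met this test. No explanation was tested.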

How the results depend on the processing

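The KO against WT calls of events 3972, 9000 and 4824 kept their direction and passed at all 3 ages in 108 of 108 alternative fits. No called result reversed. Ranges with a library left out were drawn up for some products and comparisons only. Among the values so followed that did not pass, the log2 change of 3 events and 2 products changed sign. At week 5 it ranged from -0.0066 to 0.49 for event 4106, from -0.53 to 0.11 for event 8917, from -0.28 to 0.49 for event 8961 and from -0.18 to 0.066 for the level of the long product of 4106. At week 18 it ranged from -0.74 to 0.42 for event 8961, and at week 9 from -0.11 to 0.049 for the level of the long product of 4762. The count of Camk2 genes past the threshold at 3′ ends, 0, became 1 with DESeq2 and 1 with the replicate block (limma adjusted p = 0.0285), Camk2a in both. The count of pathway genes, 3, became 6 with DESeq2 and 5 with the replicate block, and ranged from 0 to 6 when a library was left out. Pathway events at week 5 were 1, against 2 with DESeq2 and 0 in a fit of only the groups compared. Pathway events at week 18, 6, ranged from 2 to 6 when a library was left out. Camk2 events in WT at week 18 against week 5 were 1, against 0 with DESeq2 and 2 in a fit of only the groups compared, with 0 to 2 when a library was left out. Camk2 products at week 9, 7, ranged from 4 to 7, and those in KO at week 18 against week 5, 1, from 0 to 2 when a library was left out. The causes were not tested. Deviations of same-numbered columns from their group means correlated weakly, not all above 0.1 (0.059 to 0.279 at 3′ ends and -0.068 to 0.073 in RASL-seq), so the block was not used as a pairing, and it changed no count of Camk2 events. Depth limits event 4824 most, where the 95% Wilson interval of a library spans up to 22.4 points.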
